A study of Mus musculus with 4 samples.

Results

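The Skint genes (selection and upkeep of intraepithelial T cells) were followed in stem cells of the hair follicle from C57BL/6 mice. The follicles were in anagen, when hair grows. All rows of the deposited table whose symbol is Skint followed by a number were taken, which gave 11 of 55401 genes, Skint1 to Skint11. RNA-seq libraries came from mice on a normal diet (2 libraries) or on a high-fat diet for 4 months (2 libraries). How the cells were isolated, the age of the mice and whether each library is a different animal are details the sources used here do not give, so the spread between libraries may be technical. The family was chosen by its measured difference between the diets in these 4 libraries. Its values by diet are therefore given as a description, without a test.

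Skint genes encode membrane proteins of the immunoglobulin superfamily, related to the butyrophilins, with an extracellular immunoglobulin-like part and several membrane-spanning segments. They are expressed mainly in keratinocytes and in thymic epithelium. Skint1, the founding member, is required in the mouse thymus for the development of the gamma-delta T cells that later settle in the epidermis as dendritic epidermal T cells. The other members are known mostly from their sequence and skin-biased expression, and Skint3 and Skint9 have been studied in keratinocytes at wound edges. RNA from a population of cells was measured, so more cells that express a gene and more RNA per cell cannot be told apart.

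The family lies in a single cluster on chromosome 4 of mouse build GRCm38, from position 111919392 to 114245028, a span of 2.33 Mb. In the order of the chromosome the genes are Skint8, Skint7, Skint1, Skint4, Skint3, Skint9, Skint2, Skint10, Skint6, Skint5 and Skint11. Skint9, Skint10, Skint6 and Skint5 lie on the minus strand and the others on the plus strand. Skint5 and Skint6 are much the longest, with 521.6 and 482.4 kb from start to end and with 59 and 48 exons in the transcript of longest coding sequence, against 7 to 11 exons in the other members. Only Skint6 had an exon that overlaps an exon of another gene, Gm12823, which had 0 counts in the 4 libraries.

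The upstream sequences of the members fell into related sets, shown here because the family expanded by duplication and the start regions show which copies are alike. RefSeq start regions on GRCm38.p6 were found for 11 of 11 members, Skint4 with 2 starts, which gave 12 windows of the 250 bases before a start site. The windows of Skint7 (chr4:111972677-111972926, plus strand) and Skint8 (chr4:111919305-111919554, plus strand) share a run of 51 identical bases, printed in capitals, 5′ to 3′. The run begins 52 bases before the Skint7 start and 230 bases before the Skint8 start that RefSeq gives. The start of Skint8 in the gene coordinates above, position 111919392, lies inside this window, so the distance for Skint8 depends on the annotation.
Skint7: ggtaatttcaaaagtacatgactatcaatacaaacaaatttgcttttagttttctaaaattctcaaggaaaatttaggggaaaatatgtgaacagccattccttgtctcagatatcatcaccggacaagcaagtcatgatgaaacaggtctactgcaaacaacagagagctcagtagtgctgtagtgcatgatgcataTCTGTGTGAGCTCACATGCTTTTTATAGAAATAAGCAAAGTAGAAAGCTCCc
Skint8: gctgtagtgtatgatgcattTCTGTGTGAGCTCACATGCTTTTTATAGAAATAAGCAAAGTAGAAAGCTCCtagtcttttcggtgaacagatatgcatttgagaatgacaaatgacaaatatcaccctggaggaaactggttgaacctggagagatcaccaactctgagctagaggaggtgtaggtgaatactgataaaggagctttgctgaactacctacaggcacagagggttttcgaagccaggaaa

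A second set shares a run of 14 bases, AGTACTTGAGTAAT, in capitals in the lines that follow. It occurs in the windows of Skint1, Skint3, Skint5, Skint6 and the second start of Skint4, and in no other of the 32851 windows of this length from all mouse genes (5 windows, 0.015%, both strands searched). Skint5 (chr4:113999504-113999753, minus strand) and Skint6 (chr4:113286974-113287223, minus strand) have the most similar pair of windows, with 222 of 250 bases identical. In both the run begins 228 bases before the start. In Skint1 (chr4:112006019-112006268, plus strand) it begins 231 bases before the start.
Skint5: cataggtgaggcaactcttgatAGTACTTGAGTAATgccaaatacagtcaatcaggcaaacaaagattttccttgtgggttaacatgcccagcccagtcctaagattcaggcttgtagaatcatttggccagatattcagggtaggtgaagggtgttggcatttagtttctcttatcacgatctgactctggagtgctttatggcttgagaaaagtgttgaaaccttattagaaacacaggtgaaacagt
Skint6: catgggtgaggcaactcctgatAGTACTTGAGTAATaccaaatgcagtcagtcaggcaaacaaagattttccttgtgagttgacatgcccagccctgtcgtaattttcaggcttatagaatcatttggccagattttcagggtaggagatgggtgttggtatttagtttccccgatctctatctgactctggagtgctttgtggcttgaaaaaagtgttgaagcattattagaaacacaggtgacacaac
Skint1: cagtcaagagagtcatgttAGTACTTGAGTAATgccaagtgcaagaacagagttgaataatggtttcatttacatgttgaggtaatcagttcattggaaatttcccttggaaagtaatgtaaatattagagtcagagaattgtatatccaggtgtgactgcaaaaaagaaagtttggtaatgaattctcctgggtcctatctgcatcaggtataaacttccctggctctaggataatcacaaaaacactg

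Another set is formed by Skint9, Skint10 and Skint11, whose windows share TGACTTTCATAAA, a run of 13 bases in capitals, found in 3 of the 32851 windows. Skint10 and Skint11 matched at 175 bases, Skint9 and Skint10 at 156, and Skint9 and Skint11 at 117. Skint9 and the second start of Skint4, of different sets, matched at 145. Skint2, in none of these sets, matched Skint5 at 155 bases and Skint6 at 153. Skint9 (chr4:112433986-112434235, minus strand) and Skint10 (chr4:112774862-112775111, minus strand) are shown.
Skint9: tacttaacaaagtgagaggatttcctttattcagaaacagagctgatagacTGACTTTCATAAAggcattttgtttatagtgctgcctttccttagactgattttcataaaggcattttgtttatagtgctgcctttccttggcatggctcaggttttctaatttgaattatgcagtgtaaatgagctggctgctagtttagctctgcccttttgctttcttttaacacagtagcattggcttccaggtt
Skint10: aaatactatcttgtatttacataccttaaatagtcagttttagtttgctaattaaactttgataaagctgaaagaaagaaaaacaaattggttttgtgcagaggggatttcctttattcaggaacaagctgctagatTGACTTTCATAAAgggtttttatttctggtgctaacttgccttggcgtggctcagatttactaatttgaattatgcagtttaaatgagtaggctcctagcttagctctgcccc

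Known motifs were searched in the same windows on both strands. A TATA box (TATAAA) was present in 7 of 12 Skint windows, against 12.4% of all windows. CACCC was present in 6 of 12, against 52.0%, the AP-1 motif TGANTCA in 1, Skint11, against 6.7%, and GCGTG, the core bound by the aryl hydrocarbon receptor, in 1, Skint10, against 28.2%. These are matches of letters at any position in the window and not binding sites. The windows are related copies, and Skint7 and Skint8 match TATAAA within the run they share, so the matches are not independent.

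Although the genes are relatives, little of their annotated transcript sequence is identical over the length of a short read. In Skint1, Skint4, Skint9, Skint10 and Skint11, 0% of the stretches of 50 bases recurred exactly in another member. The share was largest in Skint7 (6.83%) and Skint8 (5.81%), which share with each other, followed by Skint6 (4.64%) and Skint5 (3.97%), which likewise share with each other. Over 100 bases only Skint7 (3.49%) and Skint8 (2.95%) shared a stretch with another member. Outside the family, Skint11 shared the most, 4.51% of its stretches of 50 bases. Skint8 (2.31%), Skint2 (1.29%), Skint7 (0.8%), Skint6 (0.45%) and Skint4 (0.19%) also shared stretches of 50 bases with genes outside it. Over 100 bases only Skint11 did, at 0.45%. The sources used here give neither the read length nor the treatment of reads that fit several places. The separate values of Skint7 and Skint8, and of Skint5 and Skint6, carry that uncertainty for these stretches. So do the values of members that share stretches with genes outside the family.

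Summed over the 11 genes, Skint expression was about 2 times as high with the high-fat diet. The normal diet libraries held 775 and 873 Skint counts, which is 75.1 and 91.1 CPM (counts scaled to a common library size, after TMM scaling). The high-fat diet libraries held 1284 and 1534 counts, or 152.4 and 183.0 CPM. Both high-fat diet libraries lay above both normal diet libraries. The diet means were 83.1 ± 11.4 and 167.7 ± 21.6 CPM (SD, n = 2 per diet), a 2.02-fold difference. Without Skint4, which held the most counts, the log2 ratio of the diet means was 1.38, higher than with all 11 genes.

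Each member had a higher mean with the high-fat diet. The filter on low counts kept 11 of 11 members, Skint2 and Skint7 only through the high-fat diet libraries. In 10 of 11 members both high-fat diet libraries lay above both normal diet libraries, which was so for 22.7% of the 14479 genes tested. Of these genes 44.6% had no overlap between the diets in either direction. Fitted log2 fold changes (high-fat over normal diet, edgeR) were above 0 for 11 of 11 members, against 50.1% of genes tested, and above 1 for 9, against 6.24%. They ran from 0.48 to 3.49 with a median of 1.30, beside a median of 0.00 over all genes tested. Since this difference led to the choice of the family, these shares describe it and support nothing further.

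**Figure D1:**
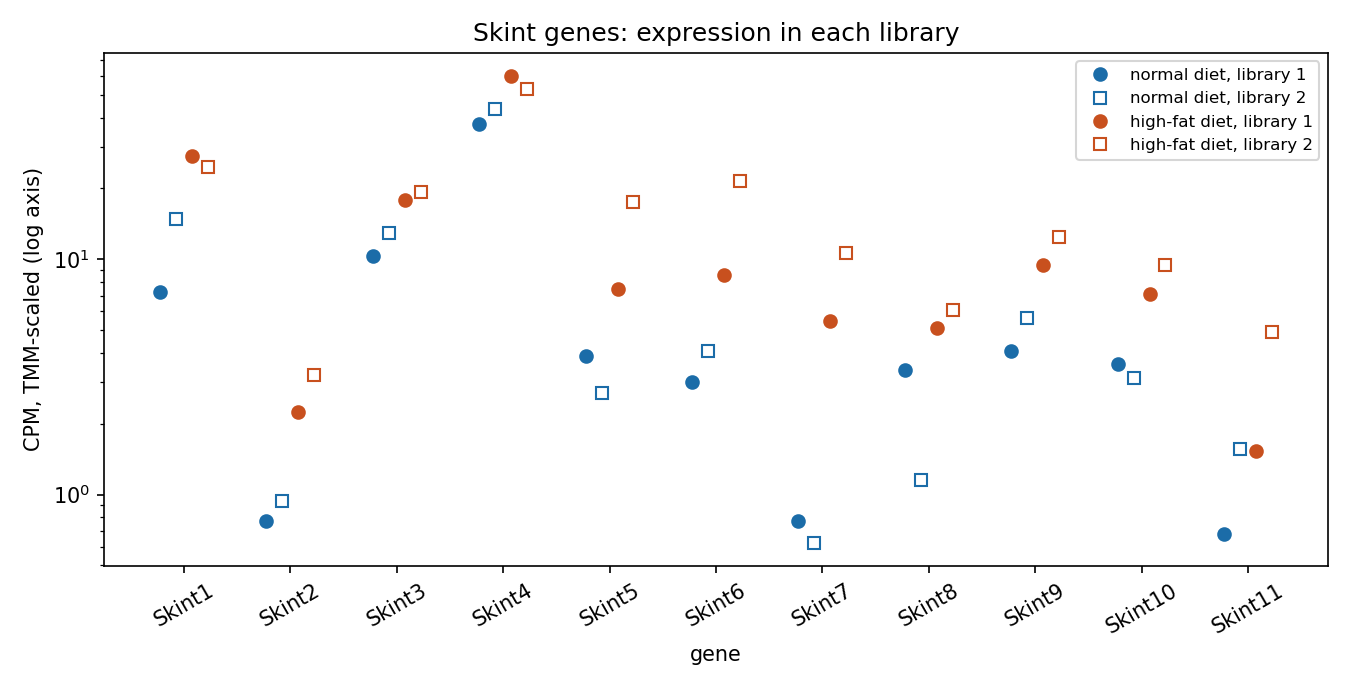
Expression of the 11 Skint genes in each of the 4 libraries, in TMM-scaled CPM on a log axis. Blue marks are normal diet and orange marks high-fat diet libraries, with filled circles for library 1 and open squares for library 2. The diets do not overlap except for Skint11, and Skint5, Skint6, Skint7 and Skint11 are spread in the high-fat diet pair.

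Skint1, the thymic selection gene, had 75 and 142 counts on the normal diet against 233 and 207 on the high-fat diet. In CPM these were 7.26 and 14.8 against 27.6 and 24.7. The normal diet libraries differed 2.04-fold from each other, while the high-fat diet libraries were alike. The log2 fold change was 1.25 with a standard error of 0.32. With library 1 of the normal diet left out it was 0.82, and with library 2 left out 1.84.

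Skint4 was the most abundant member and differed least between the diets. It stood at 37.4 and 43.5 CPM with the normal diet and at 59.9 and 53.1 CPM with the high-fat diet. All 4 values lay within a narrow range, with no overlap. The log2 fold change was 0.48 ± 0.17 (SE). Skint3 behaved similarly, at 10.3 and 12.9 against 17.8 and 19.4 CPM, with a log2 fold change of 0.68 ± 0.27 (SE). By the distance between centred log2 CPM over the 4 libraries, Skint3 and Skint4 were the closest of the 55 pairs of members (0.31). The windows of Skint3 and the second start of Skint4 had 151 matching bases. By comparison, those of Skint9 and the second start of Skint4, of different sets, had 145.

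Skint7 had the largest fold change, from a very low level. It had 8 and 6 counts on the normal diet against 46 and 89 on the high-fat diet, or 0.775 and 0.626 against 5.46 and 10.6 CPM. The normal diet values were near the 3 counts taken as the floor, which is between 0.291 and 0.358 CPM in these libraries. The log2 fold change was 3.49 ± 0.63 (SE). It was 3.89 with the first high-fat diet library left out and 2.94 with the second left out. Skint8, whose transcripts and upstream run are most like those of Skint7, had 35 and 11 counts against 43 and 51. Its high-fat diet libraries were alike, and its first normal diet library lay much nearer to them than its second. Its log2 fold change was 1.29 ± 0.62 (SE). With library 1 of the normal diet left out it was 2.27, and with library 2 left out 0.72. The pattern of these relatives differed, with a distance of 2.20 between them, against 0.31 to 3.10 over all pairs.

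Skint5 and Skint6, the long members with nearly the same start region, had a distance of 0.69 between them. Skint2 lay slightly closer to Skint6 (0.66). Skint5 had 40 and 26 counts on the normal diet against 63 and 147 on the high-fat diet. Skint6 had 31 and 39 against 72 and 181. The second normal diet library was 0.701 times the first for Skint5 and 1.36 times for Skint6 in CPM. In both, the second high-fat diet library was far above the first, 2.35 times for Skint5 and 2.53 times for Skint6 in CPM. Their log2 fold changes were 1.92 ± 0.48 and 2.09 ± 0.47 (SE). With library 2 of the high-fat diet left out they were 1.18 and 1.27, and with library 1 left out 2.40 and 2.61.

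Skint9, Skint10 and Skint11, the last set by start region, differed in how firmly the diets separated. Skint9 stood at 4.07 and 5.64 CPM with the normal diet and at 9.49 and 12.4 with the high-fat diet, a log2 fold change of 1.17 ± 0.39 (SE). Skint10 stood at 3.58 and 3.13 against 7.12 and 9.42 CPM, a log2 fold change of 1.30 ± 0.45 (SE). In both genes the libraries of a diet were close and the diets apart. Skint11 had 7 and 15 counts against 13 and 41, and was the member in which the diets overlapped. Its log2 fold change of 1.51 ± 0.84 (SE) was 0.46 with library 2 of the high-fat diet left out and 2.12 with library 1 left out. Skint2, the member of lowest mean level, had 8 and 9 counts against 19 and 27, or 0.775 and 0.94 against 2.25 and 3.22 CPM. Its log2 fold change was 1.66 ± 0.81 (SE).

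The second high-fat diet library exceeded the first by at least 1.5 times in 4 members, Skint5, Skint6, Skint7 and Skint11, against 11.9% of genes tested. In Skint1 and Skint4 it lay below the first, at 0.893 and 0.886 times. The ratio between the high-fat diet libraries thus differed between members and was not a common factor. Within the normal diet the second library was above the first in 7 members and below it in Skint5, Skint7, Skint8 and Skint10.

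Levels between members were compared per exonic length, in FPKM (counts divided by the exonic size and the library total). With the normal diet Skint4 was highest at 9.54 ± 0.919 FPKM (SD, n = 2). It was followed by Skint1 (3.77 ± 1.79), Skint9 (3.64 ± 0.792) and Skint3 (3.10 ± 0.474), which did not differ beyond their spread. The other 7 members lay under 1 FPKM, from 0.955 ± 0.191 for Skint6 to 0.180 ± 0.0283 for Skint7 (SD, n = 2). On the high-fat diet the order at the top was the same, with Skint4 at 12.5 ± 0.969, Skint1 at 8.42 ± 0.608, Skint9 at 7.75 ± 1.51 and Skint3 at 4.71 ± 0.332 FPKM (SD, n = 2). Skint1 and Skint9 again lay within their spread. Skint3 could not be ranked above Skint6, which was higher in the second high-fat diet library (5.51 against 4.94 FPKM). Skint6 (3.83 ± 2.37), Skint5 (2.65 ± 1.53), Skint11 (2.25 ± 1.67), Skint10 (2.15 ± 0.438) and Skint7 (1.96 ± 0.905) could not be ranked among themselves. Skint8 and Skint2 were lowest, at 1.17 ± 0.148 and 1.11 ± 0.290 FPKM (SD, n = 2). By mean FPKM over the 4 libraries, Skint4 stood at percentile 73.0 of the genes tested, Skint1 at 56.1 and Skint2 at 11.4.

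**Figure D2:**
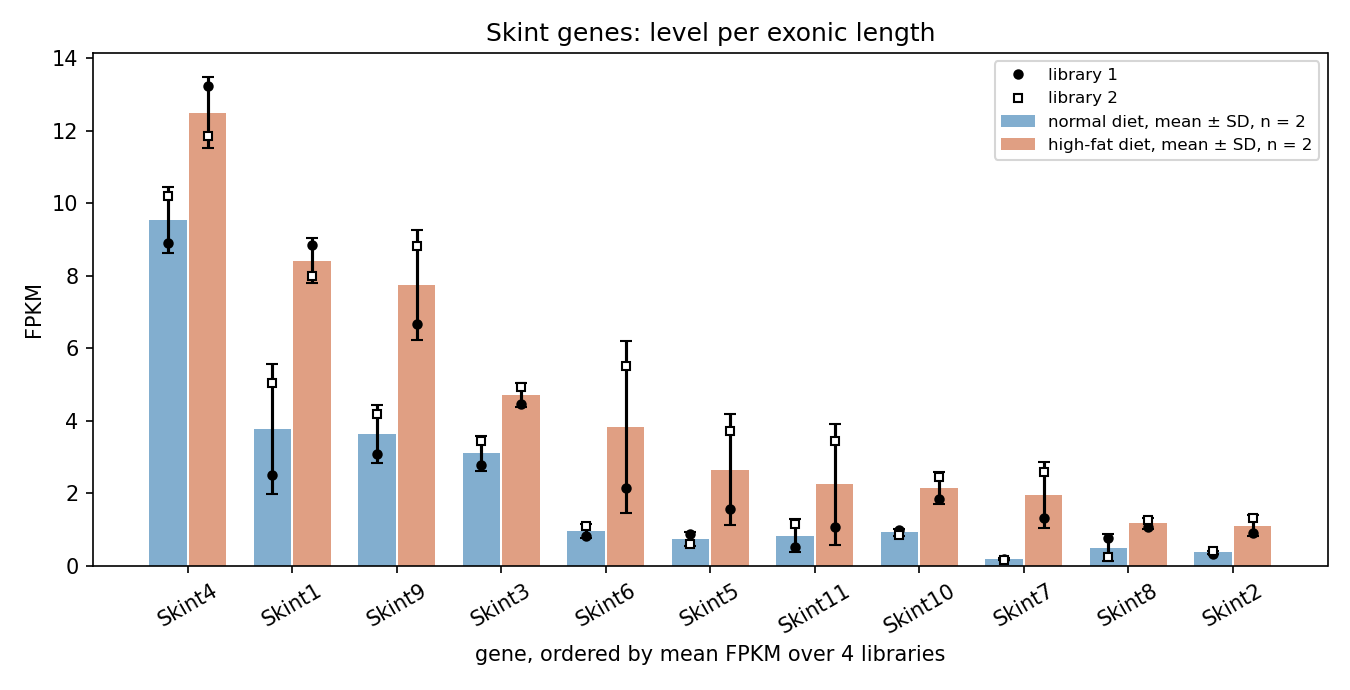
Level of each Skint gene per exonic length in FPKM, ordered by the mean over the 4 libraries. Bars are diet means with SD (n = 2), and points are the libraries. By the mean, Skint4, Skint1, Skint9 and Skint3 lead in both diets, but in the second high-fat diet library Skint6 lies above Skint3. The bars of Skint5, Skint6 and Skint11 with the high-fat diet have wide spreads.

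These levels depend on the length that counts are divided by. The table's exonic size covers all annotated transcripts and for Skint1 it is 3014 bases where the longest coding transcript has 1260. Divided by the longest coding transcript, Skint1 stood at 9.01 and 20.1 FPKM on the normal and the high-fat diet, beside 10.4 and 13.7 for Skint4. Skint1 was then the highest member with the high-fat diet. Skint10 moved from 2.15 to 5.84 and Skint8 from 1.17 to 4.21 with the high-fat diet. The ratio between diets within a gene does not depend on this length.

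The makeup of Skint expression differed between libraries. Skint4 made up 40.9% and 37.2% of the summed FPKM of the family on the normal diet, against 30.7% and 22.0% on the high-fat diet. Skint7 made up 0.9% and 0.6% against 3.1% and 4.8%. Skint6 stood at 3.8% and 4.0% against 5.0% and 10.2%. Skint9 kept a near-constant share, between 14.2% and 16.4% in the 4 libraries. Skint1 and Skint4 together held 52.4%, 55.6% and 51.2% in the normal diet libraries and the first high-fat diet library, and 36.8% in the other high-fat diet library.

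**Figure D3:**
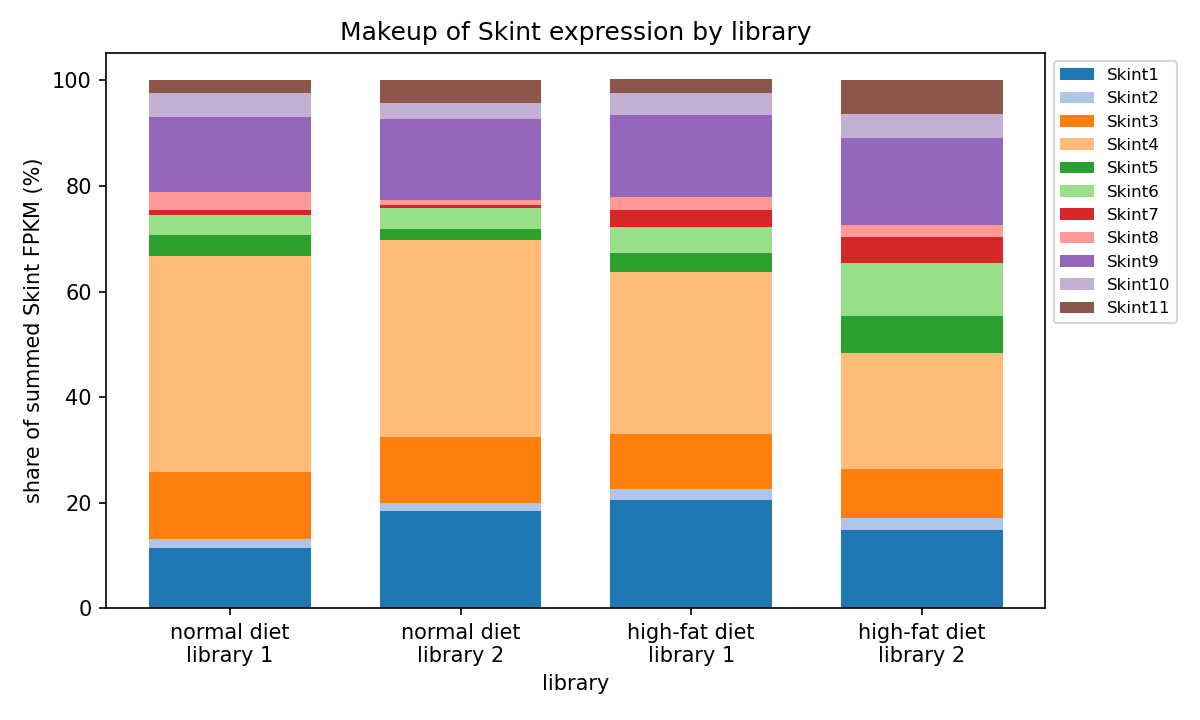
Share of each member in the summed FPKM of the Skint family, in percent, for each library. Skint4 takes 40.9% and 37.2% on the normal diet against 30.7% and 22.0% on the high-fat diet, and the shares of Skint5, Skint6, Skint7 and Skint11 are largest in the second high-fat diet library.

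Position on the chromosome was not used to choose the family, and the genes around it were tested as neighbours. Of 44 other genes that start within 1 Mb of the outermost members, 9 were expressed enough to test. None was called higher or lower (edgeR quasi-likelihood test, adjusted p under 0.05, against 1.35% of genes tested), and DESeq2 also called 0. By edgeR 3 of the 9 had an unadjusted p under 0.05, against 1922 of the 14479 genes tested. The median log2 fold change of the 9 neighbours was -0.02, with Slc5a9 among them through its high-fat diet counts. The nearest tested neighbour on the Skint8 side, the sugar transporter gene Slc5a9, had 4 and 5 counts on the normal diet against 29 and 31 on the high-fat diet. Its log2 fold change of 2.94 ± 0.82 (SE) did not pass (edgeR adjusted p = 0.130). On the Skint11 side, Trabd2b, a membrane protease gene, had a log2 fold change of -0.12 ± 0.14 (SE; edgeR adjusted p = 0.782). Only 1 of the 15 genes that lie between the outermost members could be tested, the gene model Gm12816, at -0.39 ± 1.04 (SE; edgeR adjusted p = 0.928).

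**Figure D4:**
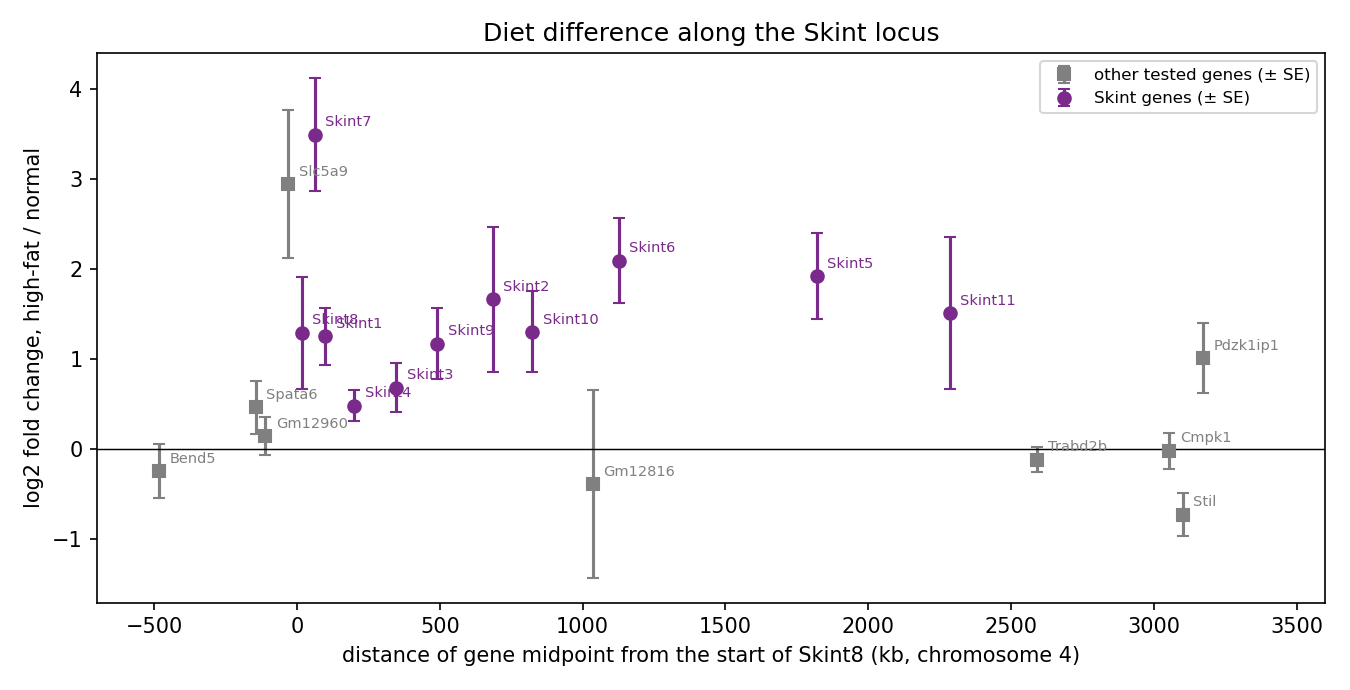
Log2 fold change between the diets (high-fat over normal, ± SE) for the 11 Skint genes (purple circles) and the 9 other tested genes of the region (grey squares), by distance in kb of the gene's midpoint from the start of Skint8. The Skint genes lie between 0.48 and 3.49, while the other genes lie on both sides of 0, with Slc5a9 at 2.94.

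Other molecules of the same kind and of the same exchange with T cells were read from lists. Butyrophilin and B7 relatives share the immunoglobulin-like fold with Skint proteins. Of 20 such genes, 19 were found by symbol in the deposited data and 5 were expressed enough to test. Of these 0 were called by edgeR, against 1.35% of genes tested, and 0 by DESeq2. An unadjusted p under 0.05 (edgeR) was found for 1 of them, and for 1922 of the 14479 genes tested. The butyrophilin-like genes Btnl1, Btnl4, Btnl6 and Btnl9 had at most 2 counts in any library, and Btnl2 and Btnl10 had 0. Ermap, an erythroid-associated butyrophilin relative, had 0 counts in both normal diet libraries against 12 and 14 on the high-fat diet, and did not pass (edgeR adjusted p = 0.0957). Ermap was the 1 gene with an unadjusted p under 0.05 (edgeR). It passed the count filter only through the high-fat diet libraries. The T cell ligand genes Cd276 and Vsir had log2 fold changes of 0.03 ± 0.20 and 0.45 ± 0.32 (SE) and did not pass either.

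Of 25 genes for signals between keratinocytes and epidermal T cells, 21 were found by symbol in the deposited data and 15 were tested. With the high-fat diet 2 were higher, Ahr and Il33, and 0 were lower (edgeR, against 1.12% of genes tested called higher and 0.228% called lower). Ahr, the aryl hydrocarbon receptor, rose 3.48-fold from 12.4 and 14.0 to 43.4 and 48.4 CPM, a log2 fold change of 1.80 ± 0.21 (SE; edgeR adjusted p = 0.00368). The alarmin gene Il33 rose 3.95-fold from 3.78 and 12.5 to 32.5 and 32.0 CPM, a log2 fold change of 1.99 ± 0.41 (SE; edgeR adjusted p = 0.0413). The call of Ahr was lost without the first or the second normal diet library (edgeR adjusted p = 0.456 and 0.139), with log2 fold changes of 1.72 and 1.89. It was kept when either high-fat diet library was left out (edgeR adjusted p = 0.00363 and 0.0137). That of Il33 was lost without any of the 4 libraries, with edgeR adjusted p of 0.464 and 0.139 without the first and second normal diet library and 0.0671 and 0.0608 without the first and second high-fat diet library. Its log2 fold change was then between 1.37 and 3.09. On log2(FPKM + 1) limma called neither (adjusted p = 0.117 for Ahr and 0.182 for Il33), while DESeq2 called both and Cxadr. Cxadr, an adhesion ligand of epidermal T cells, and the skin chemokine gene Ccl27a had log2 fold changes of 0.54 ± 0.14 and 0.86 ± 0.22 (SE) and did not pass (edgeR adjusted p = 0.0907 and 0.0988). H60c and Ulbp1, ligands of the receptor encoded by Klrk1, had log2 fold changes of 0.34 ± 0.31 and 0.90 ± 0.48 (SE) and did not pass.

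Thymic epithelium, the other main site of Skint expression, was represented by 12 genes. Aire and Psmb11, which define medullary and cortical thymic epithelium, had 0 counts in the 4 libraries. Of the 6 genes tested, edgeR called 0 (1.35% over all genes tested), and DESeq2 called 0. By edgeR 3 of the 6 had an unadjusted p under 0.05, against 1922 of the 14479 genes tested. Foxn1, a transcription factor shared by thymic epithelium and hair follicle, had 31 and 11 counts on the normal diet against 65 and 77 on the high-fat diet. Its log2 fold change of 2.01 ± 0.55 (SE) did not pass (edgeR adjusted p = 0.117).

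Markers of the cell types that these libraries could hold differed between the diets to unequal degrees. Suprabasal epidermis markers, among them the keratin gene Krt10, summed to 2752 and 4753 CPM with the normal diet and to 6394 and 7692 CPM with the high-fat diet. The libraries had the same order here as in summed Skint expression, and also in the sums of gamma-delta T cell and of myeloid markers given further on. Of 24 such genes tested, edgeR called 7 higher and 1 lower, against 1.12% and 0.228% of genes tested, and DESeq2 called 10 higher and 1 lower. Krt2, at 2 and 1 counts against 50 and 31, is among the 7. It passed the count filter only through the high-fat diet libraries. Dsg1a, a desmosomal cadherin gene, rose from 121.2 and 137.4 to 357.2 and 435.0 CPM (edgeR adjusted p = 0.000299). Flg, which encodes the cornified layer protein filaggrin, fell from 568 and 1977 to 169 and 286 counts, a log2 fold change of -2.27 ± 0.47 (SE; edgeR adjusted p = 0.0413). Its relative Hrnr stood at 20.1 and 49.5 against 11.6 and 15.7 CPM and was called lower by DESeq2 but not by edgeR (edgeR adjusted p = 0.120). Basal epidermis markers summed to 11705 and 13297 against 17531 and 15978 CPM, with 3 of 11 called higher (Krt14, Ly6d and Fgfbp1) and 0 lower by edgeR, and the same counts by DESeq2. Upper follicle and sebaceous markers summed to between 4144 and 5169 CPM, with 4 of 13 called higher (Krt79, Gata6, Cst6 and Defb6) and 1 lower by edgeR, and 5 and 1 by DESeq2. The gene called lower was the hedgehog target Gli1, with a log2 fold change of -0.72 ± 0.13 (SE; edgeR adjusted p = 0.0259). For the basal and upper follicle lists too, 1.12% and 0.228% of genes tested are the shares called higher and lower. With library 1 of the normal diet left out, 0 genes in all were called by edgeR, so none of these calls was kept there (1488 genes had an unadjusted p under 0.05). Bulge stem cell markers, which define the labelled cell type, summed to between 4833 and 5684 CPM in the 4 libraries. Krt15 made up the most of that sum, at 1990 and 2715 against 3004 and 2971 CPM. In 7 of the 11 bulge markers (Cd34, Lgr5, Sox9, Lhx2, Nfatc1, Tbx1 and Wif1) both high-fat diet libraries lay below both normal diet libraries. In 3 both lay above. Among all genes tested 22.7% lay above in this way, and 44.6% had no overlap in either direction. The median log2 fold change of the bulge markers was -0.18. Of the 11, edgeR called 0 (1.35% over all genes tested), and DESeq2 called 1 lower, Lhx2. By edgeR 5 of the 11 had an unadjusted p under 0.05, against 1922 of the 14479 genes tested. The part of the epidermal and follicle markers in the Skint difference was not tested.

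T cells, the partners of Skint-expressing keratinocytes, left few counts. The 22 gamma-delta T cell markers summed to 5.33 and 36.4 CPM on the normal diet. On the high-fat diet they summed to 37.0 and 41.7 CPM. In this sum the first normal diet library stood apart and the other libraries were alike. Both high-fat diet libraries lay above both normal diet libraries in 6 of 11 markers tested, against 22.7% of genes tested, and below in 0. The median log2 fold change of the 11 was 1.08, and 9 were above 0, against 50.1% of genes tested. Trdv4 (1 and 9 counts against 10 and 19) and Il2rb (0 and 6 against 17 and 12) are among the 6. Both passed the count filter only through the high-fat diet libraries, so these shares depend in part on the filter. The delta constant gene Trdc had 0 and 16 counts against 24 and 47. Trgv5 had counts in the second high-fat diet library alone, 14, and Trgv6 and Jaml had 0 in the 4 libraries. Of the 11 markers tested, edgeR called 0 (1.35% over all genes tested), and DESeq2 called 0. By edgeR 0 of the 11 had an unadjusted p under 0.05, against 1922 of the 14479 genes tested. Markers of Langerhans and other myeloid cells summed to 31.8 and 56.8 against 70.0 and 89.0 CPM. Of 7 tested, edgeR called 0 (1.35% over all genes tested), and DESeq2 called 0. By edgeR 3 of the 7 myeloid markers had an unadjusted p under 0.05, against the same 1922 of 14479. The part of these cells in the Skint difference was not tested.

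The genes most like summed Skint expression over the 4 libraries were named by the distance between centred log2 CPM, among 10910 named genes whose mean FPKM was 1 or more. They were Decr2, a peroxisomal enzyme of fatty acid oxidation (distance 0.044), Mill1, a relative of class I histocompatibility genes (0.054), the transporter gene Slc22a23 (0.103), the metalloreductase gene Steap3 (0.105) and Lypd3, a surface protein of keratinocytes (0.106). Within a distance of 0.2 there were 15 genes. Lypd3 stood at 42.3 and 53.3 CPM on the normal diet and at 91.5 and 99.7 on the high-fat diet. With only 4 libraries such likeness is a description.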

How the data were processed

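Hair follicle stem cell RNA from mice on a normal or a high-fat diet was sequenced in 2 libraries per diet, grouped by the titles in the labels. HISAT2 2.0.1, cutadapt 1.9.1 and bcl2fastq 2.17.1.14 are listed in the submitters' processing notes, with no role. The read counter, strand setting and annotation were not given in the sources used here. Raw counts per gene were deposited, with totals of 8590570 to 9940848 per library, as were FPKM values, which equalled the deposited count divided by exonic size and column total within 0.005. Of the table's genes 55141 have an identifier in GENCODE M21 (GRCm38), and 99.4% of these have the same coordinates there, including 11 of 11 Skint genes.

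Counts were tested in R 4.3.3 with edgeR 4.0.16 (quasi-likelihood test), with TMM scaling and the default filter by group (about 10 counts in 2 libraries, 15 in total), which kept 14479 genes. P-values were adjusted by Benjamini-Hochberg over all of them, with calls at an adjusted p under 0.05. P-values measure only the spread between these libraries. In all 162 genes were called higher and 33 lower (88 and 3 with libraries scaled to equal sums of TPM, 132 and 65 with library totals). Alternatives were other scalings, no filter, DESeq2 1.42.0, limma 3.58.1 on log2(FPKM + 1), the replicate number as a block, and fits without each library in turn. Fits were checked on simulated counts. The members and lists were chosen with earlier results of these data known. Named genes were all members, called list genes and others of small p, called and nearest neighbours, and the 5 genes most like the family sum. For brevity many list genes are given as counts only, and Btnl1, Btnl4, Btnl6, Btnl9, Cd276, Trgv5, Hrnr, H60c, Gm12816, Cd34, Lgr5, Sox9, Nfatc1 and Wif1 were named after their values were seen. T cell receptor symbols of the list were matched to those of the table by hand. Upstream and transcript sequences are RefSeq (GRCm38.p6) and GENCODE M21. The floor of 3 counts covers counting error only, while each SD and SE includes the spread between libraries.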

Additional observations from a re-analysis of the deposited data

How the results depend on the processing

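For the 11 Skint genes the log2 fold change stayed above 0 under each of the 12 alternatives, from 0.36 (lowest, limma on log2(FPKM + 1)) to 3.89 (highest, without the first high-fat diet library). The log2 ratio of summed Skint expression lay between 0.87 and 1.16 with a library left out, and was 1.38 without Skint4. The members with no overlap numbered 10 or 11 under other scalings and with a library left out.

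Over all genes, the calls higher and lower were 88 and 3 with equal sums of TPM, 132 and 65 with library totals without TMM, 408 and 225 without the count filter, 274 and 115 with DESeq2, and 2 and 0 with limma on log2(FPKM + 1), as with a pseudocount of 0.1 (unadjusted p under 0.05 for 2078 and 2029 genes). With a library left out they ranged from 0 to 81 higher and from 0 to 2 lower. Such fits take the spread of the lone library to equal that of the remaining pair. The 0 came without the first normal diet library (edgeR), where 1488 genes had an unadjusted p under 0.05. The T cell signal list had 4 genes higher without the filter, 0 with limma at either pseudocount, and from 0 to 1 with a library left out. The thymic list had 1 gene higher without the filter. The cause of these changes was not tested.

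With the replicate number as a block, edgeR called 308 genes higher and 111 lower and 1 thymic gene higher. The labels do not say that the numbers pair libraries, and the correlation of deviations between same-numbered libraries was -0.0046. Levels per length of the longest coding transcript were chosen after seeing the data. With 8590570 to 9940848 counts per library, members under 10 counts are limited by depth.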
